A study of Homo sapiens with 6 samples.

Results

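The 10 genes described here move iron into, through and out of the cell or sense how much of it there is: TFRC, SLC11A2, SLC40A1, FTL, FTH1, NCOA4, HMOX1, ACO1, IREB2 and FBXL5. They were chosen by name, with earlier results of these data known, out of 19864 protein-coding genes on chromosomes 1 to 22 and X. The data were 3 lists of peaks called by dREG, which recognises active promoters and enhancers by the pattern of run-on reads, the traces of RNA polymerases engaged in transcription. All libraries came from untreated K562 cells, an established line from a chronic myeloid leukaemia that the labels call lymphoblastoid, and each list stood for 2 libraries from cultures at least 3 passages apart. PRO-seq 1M used the published run-on protocol on 1M cells, with 3 affinity purifications and 11 cycles of PCR. qPRO-seq 1M used a quicker protocol, with 1 purification on another type of streptavidin bead, on the same input and with as many cycles, and qPRO-seq 250k used the quicker protocol on 250k cells with 14 cycles. Values of the lists are given in that order throughout. One list per group leaves no spread between replicates, so no test between groups was made and the values below are descriptions.

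Iron enters erythroid cells mainly bound to transferrin, which the transferrin receptor takes into endosomes, from where a metal transporter carries the iron to the cytosol. Ferritin stores it, a cargo receptor delivers ferritin for breakdown when iron is needed, and ferroportin exports it. Iron regulatory proteins bind elements in the mRNAs of several of these genes and so tie mRNA stability and translation to the iron level. That control acts on finished mRNA and is not what run-on sequencing measures, which is RNA polymerases engaged in transcription. The dREG peaks used here mark promoters and enhancers.

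A gene was given a start peak where a peak lay within 500 bp of one of its annotated transcript starts (GENCODE release 29, build GRCh38). The lists held 24707, 38177 and 15562 peaks on the chromosomes used, so a longer list offers more peaks to every gene, and read depth was unknown. The marker genes of the cell type were read the same way. All 3 lists held a start peak for 7 of 8 erythroid and megakaryocytic genes. Of 6 B lymphoid genes, 1 had one in all lists, EBF1 had one in both 1M lists, and PAX5, CD79A, MS4A1 and CD22 had none. No T lymphoid gene of 4 had one.

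Start peaks marked 9 of the 10 iron genes in every list. TFRC, SLC11A2, SLC40A1, FTL, FTH1, NCOA4, ACO1, IREB2 and FBXL5 each had a start peak in all 3 lists, and HMOX1 had none in any. The background over all protein-coding genes was 52.9%, 54.5% and 44.0% in the lists, 43.1% in all 3 and 43.5% in none. The members with a start peak were the same 9 in each list. Their start peaks numbered 18, 18 and 13.

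The promoter sequences of the genes with a start peak were taken from RefSeq (build GRCh38.p14), as windows from 250 bases before to 50 after a start. The table held 13 windows for 8 of the 10 genes. FTH1 and HMOX1 had no entry. The stretches below are the parts of 6 windows that lie upstream of the start and in no annotated exon, each overlapped by a peak in at least 1 list. They are examples that show the elements counted below, and those of SLC40A1 and NCOA4 are not printed. Capitals mark the GC box (GGGCGG), the CCAAT box (CCAAT) and the E-box (CACGTG) on either strand, elements common in promoters. TFRC lies at chr3:196082190-196082340 (minus strand), SLC11A2 at chr12:51026417-51026634 (minus), FTL at chr19:48965159-48965300 (plus), ACO1 at chr9:32384393-32384602 (plus), IREB2 at chr15:78437966-78438175 (plus) and the internal start of FBXL5 at chr4:15655413-15655607 (minus).
TFRC: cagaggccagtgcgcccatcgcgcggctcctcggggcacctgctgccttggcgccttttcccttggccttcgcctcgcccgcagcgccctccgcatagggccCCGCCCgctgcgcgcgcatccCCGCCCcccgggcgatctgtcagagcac
SLC11A2: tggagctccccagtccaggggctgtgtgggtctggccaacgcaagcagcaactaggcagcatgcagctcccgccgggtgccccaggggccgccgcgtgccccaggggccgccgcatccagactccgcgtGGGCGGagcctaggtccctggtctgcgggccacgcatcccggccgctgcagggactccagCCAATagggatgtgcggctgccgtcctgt
FTL: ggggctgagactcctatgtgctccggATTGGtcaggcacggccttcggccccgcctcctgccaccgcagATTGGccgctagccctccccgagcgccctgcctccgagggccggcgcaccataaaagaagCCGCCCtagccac
ACO1: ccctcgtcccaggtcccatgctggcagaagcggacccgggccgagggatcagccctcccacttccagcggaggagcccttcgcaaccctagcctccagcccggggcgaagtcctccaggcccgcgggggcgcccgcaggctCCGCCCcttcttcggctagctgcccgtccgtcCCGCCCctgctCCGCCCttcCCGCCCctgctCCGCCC
IREB2: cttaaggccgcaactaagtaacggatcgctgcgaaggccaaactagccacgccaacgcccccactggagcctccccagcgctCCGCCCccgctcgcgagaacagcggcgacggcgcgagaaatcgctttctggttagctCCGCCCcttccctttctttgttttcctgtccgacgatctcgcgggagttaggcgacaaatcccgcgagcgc
FBXL5: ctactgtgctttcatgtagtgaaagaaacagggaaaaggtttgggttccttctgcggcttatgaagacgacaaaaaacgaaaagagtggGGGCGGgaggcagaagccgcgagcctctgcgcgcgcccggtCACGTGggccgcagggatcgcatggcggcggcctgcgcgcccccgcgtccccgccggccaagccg

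Every one of the 8 genes had a GC box in at least 1 window, 8 of 13 windows in all. For each motif, the first share given is over all 35116 windows in the table and the second over the 7716 windows of protein-coding genes that a peak overlapped in all 3 lists. The second set differs from the 13 member windows, which were kept whatever their peaks. Those of the internal starts of FBXL5 and NCOA4, and of the SLC11A2 starts at 51028886 and 51009215, had no peak in at least 1 list. For the GC box the first and second shares were 44.95% and 76.4%. ACO1 had the most, 6 GC boxes in its window, and most of them lie close together at the end of the stretch printed above, next to the start. The CCAAT box occurred in 5 of 13 windows, that of FTL and all 4 of SLC11A2 (34.6% and 38.6%). A TATA box (TATAAA) occurred in 1 of 13, that of TFRC (11.5% and 4.16%). The metal response core (TGCGCNC) was in 5 of 13 windows, from 5 genes (20.0% and 34.3%), and the hypoxia core (ACGTG), which is also part of the E-box, in 3 of 13, those of TFRC, FTL and FBXL5 (21.4% and 29.005%). The antioxidant element that NRF2 and BACH1 bind (TGACNNNGC) was in 2 of 13, those of the internal starts of FBXL5 and NCOA4 (13.3% and 15.9%). The AP-1 site (TGACTCA or TGAGTCA) was in none (4.95% and 2.48%), the E-box in 1, that of FBXL5 (7.26% and 11.04%), and the GATA site (AGATAA or TGATAA) in 1 of SLC11A2 (16.3% and 5.96%). The antioxidant and E-box matches of the members lay only in windows without a peak in all 3 lists, so the second share is not a like comparison for them. Motifs were searched on both strands, and a match describes the letters only.

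The top start peak stood high in its list for most members. As the measure, the percentile of a peak is the share of peaks of the same list with a lower score. The median percentile of the top start peak of the 9 members was 91.5, 90.4 and 90.2. Over all protein-coding genes with a start peak it was 76.4, 80.7 and 68.2, with upper quartiles of 89.2, 91.2 and 85.3. In qPRO-seq 1M the median of the members thus lay below that upper quartile. Percentiles from lists of different length are set side by side here, and no change between lists is read from them.

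**Figure D1:**
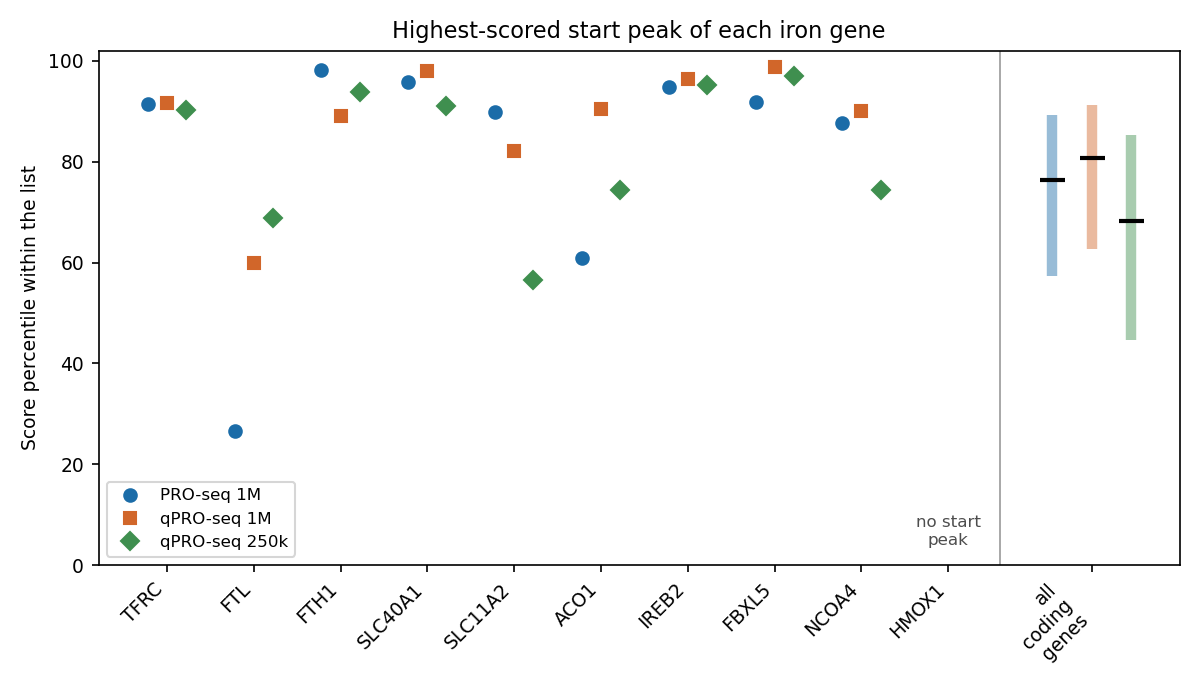
Score percentile, within its own list, of the highest-scored start peak of each iron gene, with 1 point per list. Bars on the right span the interquartile range of all protein-coding genes with a start peak and black dashes mark their medians; FTL lies lowest in PRO-seq 1M (26.6), and HMOX1 has no point.

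Iron uptake was represented by TFRC and SLC11A2. TFRC (ENSG00000072274.12, chromosome 3, 196027183 to 196082189, minus strand) encodes the transferrin receptor. Each list held exactly 1 start peak for it, at percentiles 91.5, 91.7 and 90.2, with scores of 1.05, 1.00 and 0.897. The peak was 530, 640 and 450 bp wide, and its centre lay 45 bp upstream, 9 bp downstream and 5 bp upstream of the nearest annotated start. In each list the peak spanned the cluster of starts at the 5′ end of the gene. The annotated starts further inside the gene had no peak within 500 bp.

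SLC11A2 (ENSG00000110911.15, chromosome 12, 50979401 to 51028566, minus strand) encodes DMT1, the transporter that moves iron out of endosomes and, in the gut, into the cell. The gene has 26 annotated starts, and its start peaks numbered 4, 4 and 3. The top peak lay at the cluster of starts near 51026400, at percentiles 89.9, 82.2 and 56.55. A second peak shared by all 3 lists covered the start at 51028241, further upstream, at percentiles 36.5, 75.6 and 27.2. These starts differ in base composition. The window of the main start had a GC content of 72.7% and a ratio of observed to expected CpG of 0.711, and that of the upstream start 42.0% and 0.39. Windows of 2 further RefSeq starts of the gene, at 51028886 and 51009215, were covered by no peak in any list. Weaker peaks downstream of the main start were shared less. One at 51024911 to 51025450 in qPRO-seq 1M had a counterpart in PRO-seq 1M (percentiles 24.45 and 38.4), one at 51023961 to 51024430 in qPRO-seq 1M had a counterpart in qPRO-seq 250k (27.8 and 4.98), and one at 51025661 to 51025940 was in PRO-seq 1M alone (5.89).

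**Figure D2:**
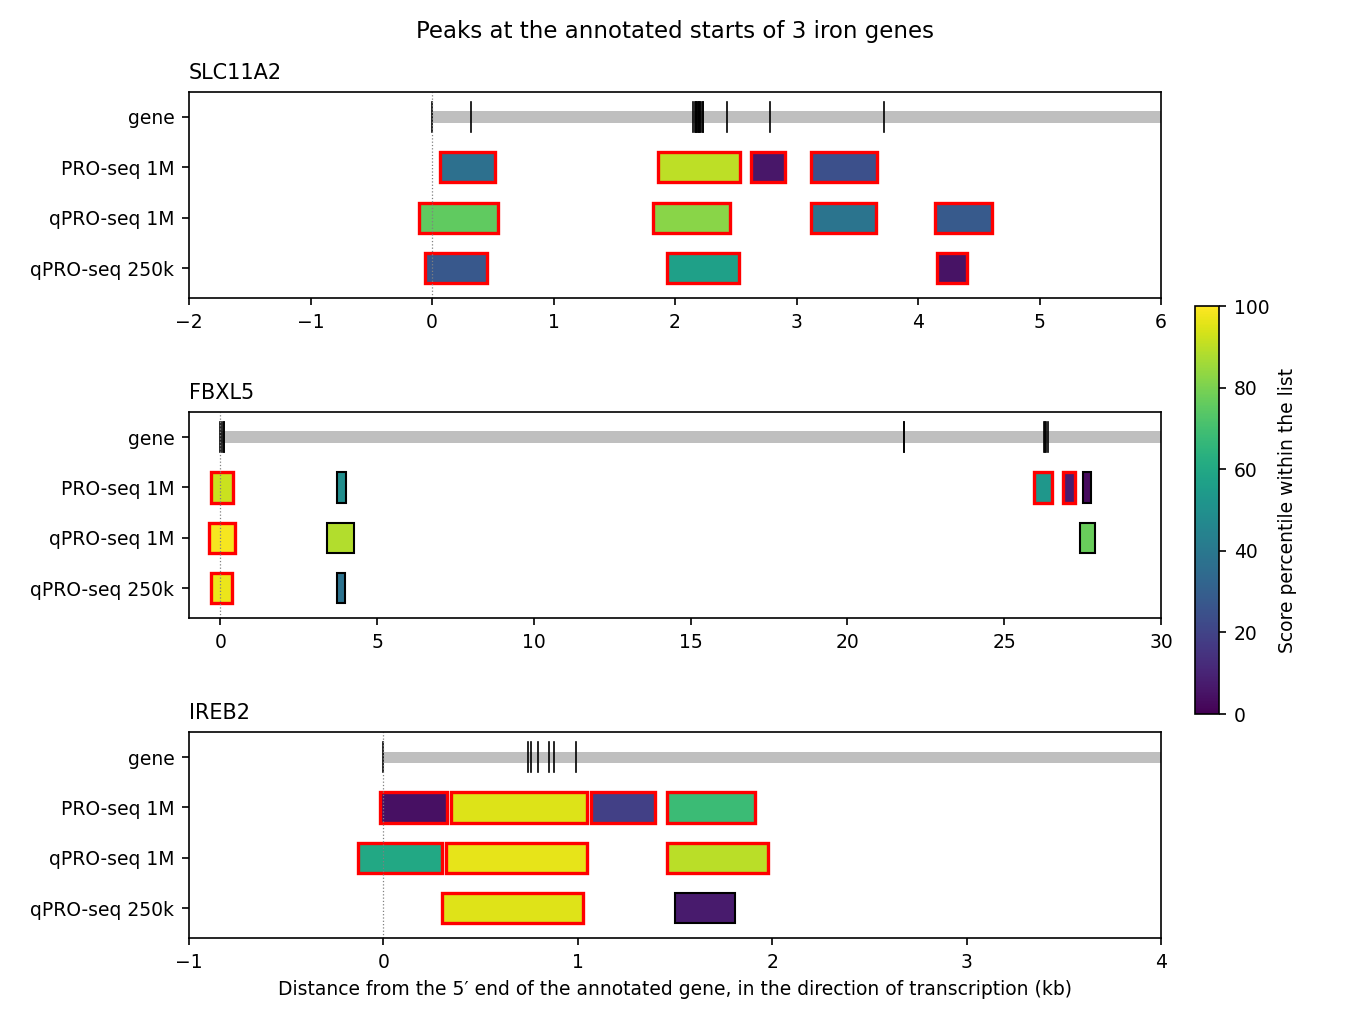
Peaks around the annotated starts of SLC11A2, FBXL5 and IREB2, drawn to scale against the distance from the 5′ end of the gene in kb, with 1 row per list. Black ticks are annotated transcript starts, fill colour is the score percentile within the list, red outlines are start peaks and black outlines distal peaks; the internal start of FBXL5 has a peak in PRO-seq 1M alone.

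Export was represented by SLC40A1 (ENSG00000138449.10, chromosome 2, 189560579 to 189583758, minus strand), which encodes ferroportin, the cellular iron exporter. Its top start peak reached percentiles 95.8, 97.9 and 90.96, with scores of 1.12, 1.14 and 0.907. The peak did not lie at the 5′ end of the annotated gene but at the starts between 189580741 and 189580887, which include the RefSeq start. Its centre lay 14 bp upstream, 20 bp upstream and 16 bp downstream of the nearest of them. qPRO-seq 1M held 3 further start peaks, at percentiles 2.25, 42.1 and 25.2. The last 2 of them, near the starts around 189582031, formed regions with no peak of another list.

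Storage was represented by both ferritin chains. FTH1 (ENSG00000167996.15, chromosome 11, 61959718 to 61967660, minus strand) encodes the heavy chain, which oxidises iron as it enters the shell. Its top start peak stood at percentiles 98.1, 89.0 and 93.9 and was centred 1 bp, 8 bp and 8 bp upstream of the nearest start. A second start region, 61966231 to 61967260, lay just inside the gene in all 3 lists, where the highest start peak stood at percentiles 28.97, 31.9 and 38.8. The noncoding gene AP003733.4 starts within 500 bp of the main peak, so the peak cannot be assigned to FTH1 alone.

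FTL (ENSG00000087086.14, chromosome 19, 48965301 to 48966878, plus strand) encodes the light chain. With 1 annotated start, the gene showed 1 peak there in each list, at percentiles 26.6, 59.9 and 68.85, with scores of 0.449, 0.624 and 0.692. FTL was the lowest of the 9 members in both 1M lists, and SLC11A2 was in qPRO-seq 250k. In PRO-seq 1M, FTL lay below the lower quartile of all protein-coding genes with a start peak (57.3), and in qPRO-seq 1M it did so too (62.8). In qPRO-seq 250k it lay close to the median of those genes (68.85 against 68.2). The peak was 540, 910 and 710 bp wide, against medians of 480, 470 and 440 bp over all start-near peaks, which include weaker peaks of a gene. In PRO-seq 1M its width lay within the interquartile range of those peaks (360 to 610 bp). The top start peaks of the 9 members had median widths of 680, 650 and 680 bp. With the lists reduced to their 15562 top-scored peaks, the FTL peak was absent from PRO-seq 1M and stood at percentile 1.54 in qPRO-seq 1M. Members with a start peak then numbered 8, 9 and 9, against 47.0%, 42.4% and 44.0% of all protein-coding genes, and 8 had one in all 3 lists, against 38.0%.

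NCOA4 and HMOX1 release stored or haem-bound iron. NCOA4 (ENSG00000266412.5, chromosome 10, 46005088 to 46030714, minus strand) encodes the receptor that takes ferritin to the lysosome. A single start peak in each list stood at percentiles 87.7, 90.0 and 74.4, centred 16 bp, 4 bp and 16 bp upstream of the nearest start. Its window at the other RefSeq start, 46019999, was covered by no peak.

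HMOX1 (ENSG00000100292.16, chromosome 22, 35380361 to 35394214, plus strand) encodes haem oxygenase 1, an enzyme that frees iron from haem and that oxidative stress induces strongly. None of its 4 annotated starts had a peak within 500 bp. The nearest peak on the upstream side lay 3021 bp away in PRO-seq 1M and 2961 bp in qPRO-seq 1M, at the start of the noncoding gene Z82244.1, and 8061 bp away in qPRO-seq 250k, at that of Z82244.2. Downstream, the nearest peak in each list was at the start of MCM5, 12441, 12481 and 12631 bp away. No distal peak lay within 50 kb of the gene either, the nearest being 78421, 78411 and 78361 bp from the gene body. Of all protein-coding genes, 22.5% likewise had neither a start peak nor a distal peak within 50 kb in any list. The absence of a peak sets no upper limit on transcription of the gene, since the depth behind the lists was unknown.

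The sensors were ACO1, IREB2 and FBXL5. ACO1 (ENSG00000122729.18, chromosome 9, 32384603 to 32454769, plus strand) encodes IRP1, which is an aconitase when it holds an iron-sulphur cluster and binds mRNA when it does not. Its one start peak in each list stood at percentiles 60.9, 90.4 and 74.3, centred within 11 bp of an annotated start. The peak was 340, 650 and 320 bp wide, narrower than the other members' top peaks in PRO-seq 1M and in qPRO-seq 250k. No other peak of any list lay within 50 kb of ACO1.

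IREB2 (ENSG00000136381.12, chromosome 15, 78437431 to 78501456, plus strand) encodes IRP2, which is degraded when iron is plentiful. Its top start peak stood at percentiles 94.8, 96.4 and 95.1 and was centred 5 bp, 15 bp and 55 bp upstream of the start at 78438176. Around it lay further peaks, so that start peaks numbered 4, 3 and 1. At the 5′ end of the gene, both 1M lists held a peak of its own (percentiles 4.04 and 59.99), and PRO-seq 1M alone held one at 78438501 to 78438830 (18.95). A downstream neighbour at 78438891 to 78439410 in qPRO-seq 1M had counterparts in both other lists, at percentiles 68.2, 89.75 and 7.07. In qPRO-seq 250k this neighbour lay 509 bp from the nearest start and so counted as distal, while in the 1M lists it lay 469 bp away and counted as a start peak.

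FBXL5 (ENSG00000118564.14, chromosome 4, 15604539 to 15681679, minus strand) encodes the iron-binding subunit that marks IRP2 for degradation. Its top start peak stood at percentiles 91.8, 98.7 and 97.1, the highest among the members in both qPRO-seq lists. FAM200B starts within 500 bp of the same peak, so the peak cannot be assigned to FBXL5 alone. PRO-seq 1M held 2 further start peaks near the internal starts between 15655295 and 15655412, at percentiles 52.8 and 7.46, in regions with no peak of another list. The sequence printed for FBXL5 belongs to this internal start. Its window had a GC content of 70.3%, and it was the only window of a member that a peak covered in PRO-seq 1M and not in the other lists.

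Peaks away from every annotated start were counted within 50 kb of the gene bodies. A peak was distal where it lay more than 500 bp from the transcript starts of all genes. The members had 10, 24 and 8 distal peaks. A distal peak lay within 50 kb of 5, 7 and 6 of the 10 members, against 40.0%, 61.6% and 26.0% of all protein-coding genes. That background includes genes without a start peak, which all members but HMOX1 had. The median number of distal peaks per member was 0.5, 1.5 and 1. Over the 8566 protein-coding genes with a start peak in all 3 lists it was 1, 2 and 0, so members were not above them in the 1M lists. Many of these peaks are closer to other genes. The nearest annotated start belonged to the member itself for 4 of 10, 9 of 24 and 2 of 8. In position, 6, 15 and 5 were intergenic and 4, 8 and 2 intronic, and the remaining 1 in each qPRO-seq list overlapped an exon of GYS1 beside FTL.

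**Figure D3:**
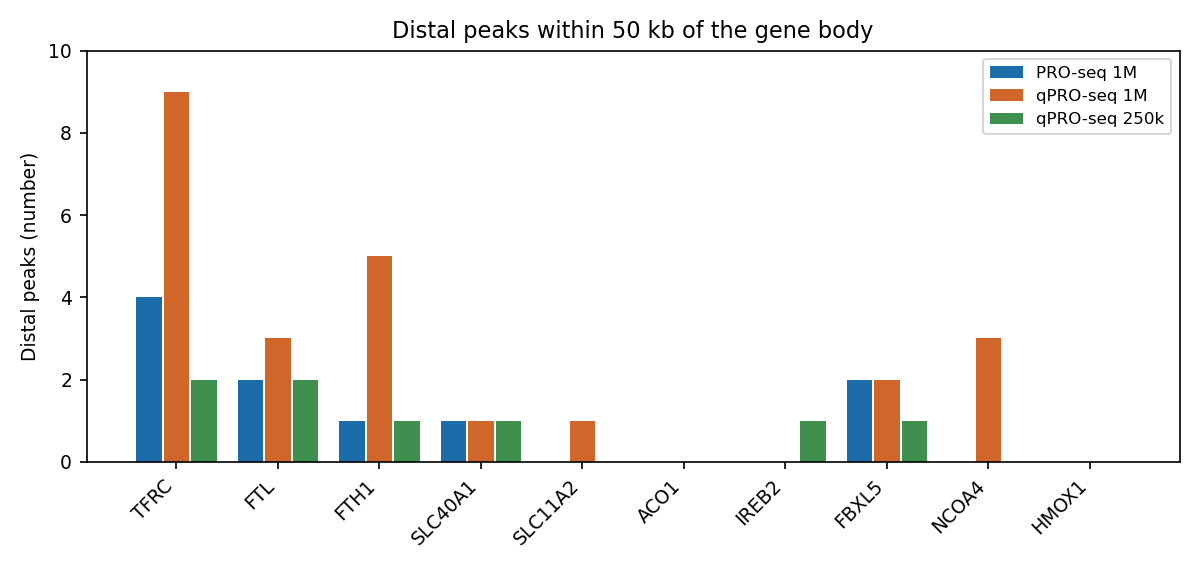
Number of distal peaks within 50 kb of the body of each iron gene, with 1 bar per list. TFRC has 4, 9 and 2 peaks, and ACO1 and HMOX1 have none in any list.

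The most distal peaks in both 1M lists surrounded TFRC, which had 4, 9 and 2, and in qPRO-seq 250k FTL had 2 as well. Among the 8566 protein-coding genes with a start peak in all 3 lists, 94.2%, 98.0% and 88.0% had fewer, in counts not adjusted for gene length. The strongest of these elements was intergenic, 4033 bp beyond the 3′ end of TFRC in qPRO-seq 1M. It made up 1 region of 1160 bp (chromosome 3, 196021991 to 196023150) with peaks in all 3 lists, at percentiles 86.4, 90.96 and 74.2. In qPRO-seq 1M, 3 of the 9 peaks belonged to this region. An intronic element centred 3088 bp inside TFRC (196078831 to 196079410) was shared by both 1M lists, at percentiles 21.1 and 60.65. Upstream of TFRC, an element at 196110431 to 196110720 was also shared by both 1M lists (10.5 and 26.1), and one at 196108201 to 196108670 was in qPRO-seq 1M alone (67.25).

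FTH1 had the highest-ranked distal element of any member in every list. It was intergenic and covered 61971341 to 61972240 on chromosome 11 in qPRO-seq 1M. Its near edge lay 3811, 3681 and 3871 bp upstream of the 5′ end of FTH1. The element stood at percentiles 92.0, 99.9 and 99.85 of its lists, with scores of 1.06, 1.34 and 1.20. In rank among distal peaks it was 209 of 7885, 10 of 17501 and 2 of 4125. In both qPRO-seq lists it scored above the start peak of FTH1 (1.34 against 0.958 and 1.20 against 0.958), and in PRO-seq 1M below it (1.06 against 1.17). The annotated start nearest to its centre was that of AP003733.4, 4117 bp away in qPRO-seq 1M, which is also the noncoding gene beside the FTH1 promoter.

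SLC40A1 had 1 distal element, shared by all 3 lists and intergenic, at 189613011 to 189613570 on chromosome 2 in qPRO-seq 1M. Its near edge lay 29353, 29253 and 29393 bp upstream of the 5′ end of the gene. The element stood at percentiles 52.4, 98.7 and 15.6. In qPRO-seq 1M its score of 1.18 was above that of the SLC40A1 start peak (1.14), and in the other lists it was below. No start peak of another gene lay within 50 kb of SLC40A1 in any list.

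**Figure D4:**
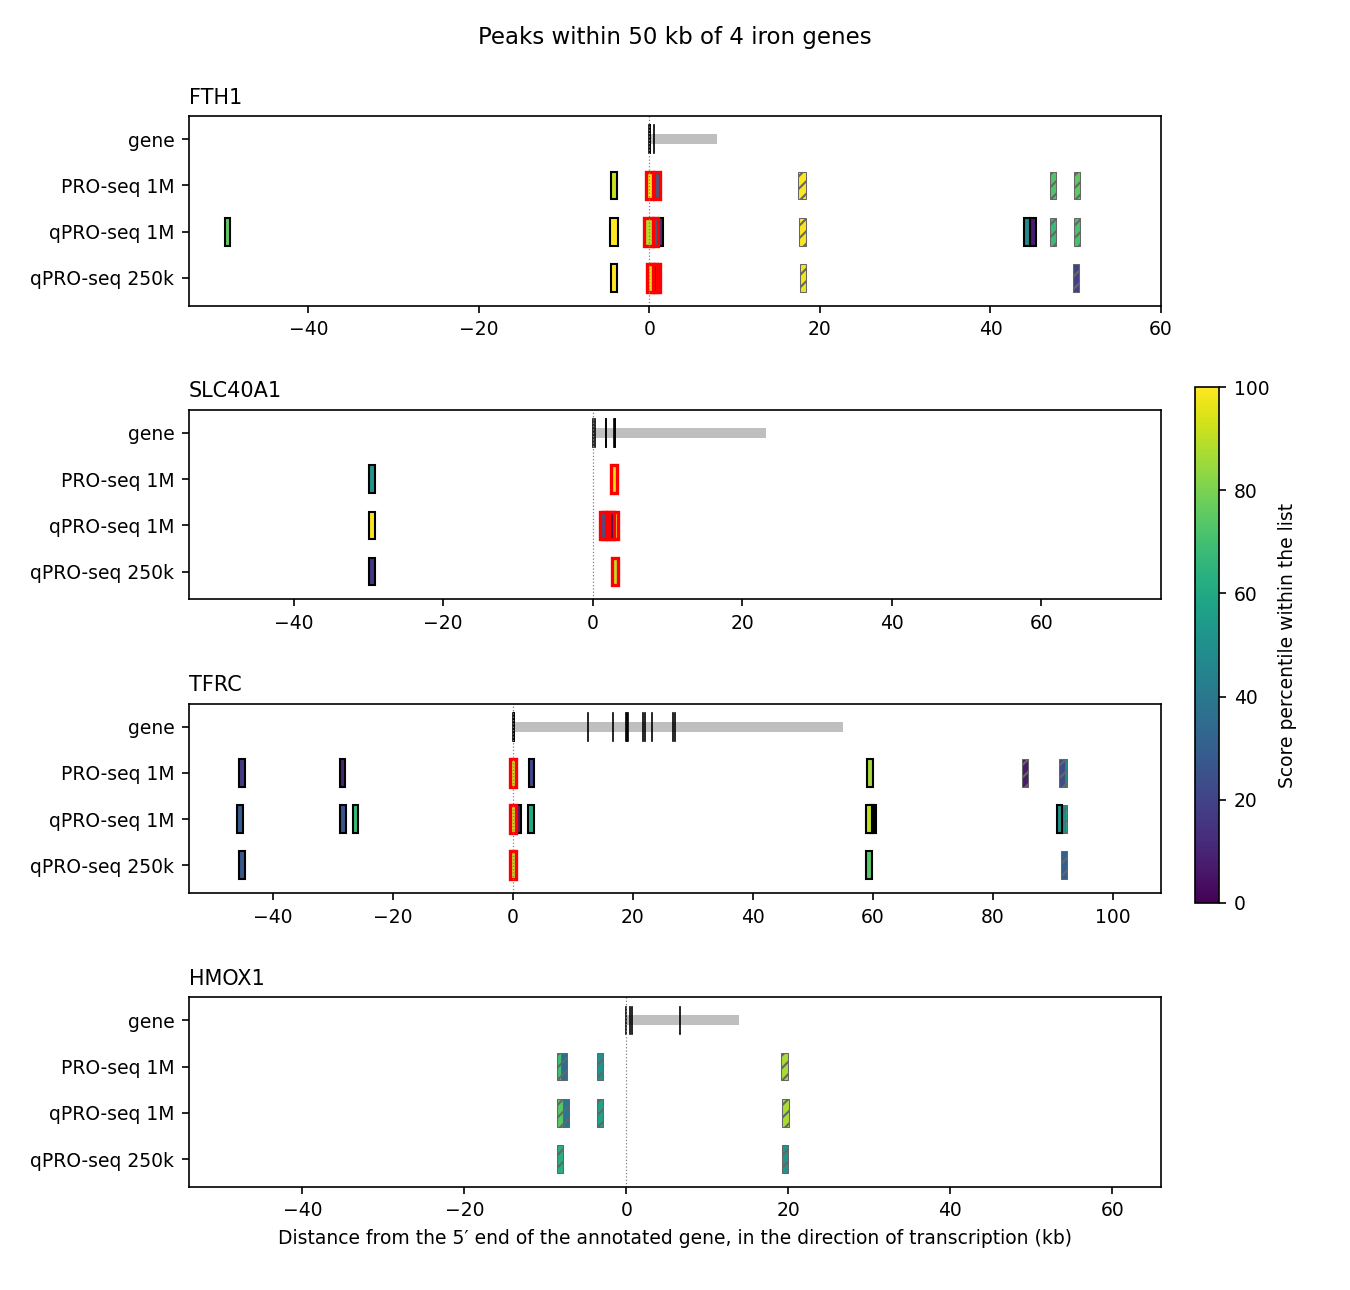
Peaks within 50 kb of FTH1, SLC40A1, TFRC and HMOX1 against the distance from the 5′ end of the gene in kb, with 1 row per list; narrow peaks are widened to stay visible. Black ticks are annotated starts, fill colour is the score percentile within the list, red outlines are the gene's start peaks, black outlines distal peaks and hatching start peaks of other genes; the FTH1 element lies near -4 kb in every list, and HMOX1 has only hatched marks.

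FBXL5 carried 2 intronic elements. The one at 15677431 to 15678270 in qPRO-seq 1M, centred 3818, 3808 and 3848 bp inside the gene, was shared by all 3 lists, at percentiles 49.1, 88.6 and 37.7. The other, at 15653771 to 15654250, was in both 1M lists, at percentiles 2.61 and 77.3. FTL had 1 element in all 3 lists, intergenic with its near edge 2661, 2611 and 2691 bp upstream of the start, at percentiles 26.6, 37.1 and 22.7. Its other distal peaks lay within GYS1, the gene of muscle glycogen synthase. NCOA4 had peaks counted as distal in qPRO-seq 1M alone, 1 of them 502 bp from its own start and 2 upstream, at percentiles 45.5, 2.11 and 6.21. The first was overlapped by the NCOA4 start peak of qPRO-seq 250k and counted as distal only by the 500 bp limit. SLC11A2 had 1 intronic distal peak, also in qPRO-seq 1M alone, at percentile 49.5.

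Sharing between lists was counted over regions made by joining overlapping peaks. The start peaks of the members fell into 20 regions. Of these, 12 (60%) had peaks in all 3 lists, against 52.5% of all 17370 start-near regions, 2 were in a pair of lists and 6 in 1 list. TFRC, FTL, FTH1, ACO1 and NCOA4 had only regions shared by all lists. The distal peaks of all members gave 21 regions outside the start windows. Regions of FTH1, IREB2 and NCOA4 that joined a distal peak to a start peak were left out. Of the 21 regions, 5 (23.8%) were in all 3 lists, against 16.2% of all 16938 distal regions. Those 5 were the elements described above near TFRC, FTL, FTH1, SLC40A1 and FBXL5. A further 10 were in qPRO-seq 1M alone (47.6%, against 55.3% of all distal regions), and none was in PRO-seq 1M alone or qPRO-seq 250k alone.

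Seen from the longest list, 12 of the 24 distal qPRO-seq 1M peaks (50%, Wilson 95% interval 31.4 to 68.6) were overlapped by PRO-seq 1M, against 42.4% of all distal peaks of that list. By qPRO-seq 250k, 8 of 24 were (33.3%, 17.97 to 53.3), against 24.4%. Both intervals cover counting error alone, neighbouring peaks are not independent, and both contain the value for all distal peaks. Of the 10 distal PRO-seq 1M peaks, 9 were overlapped by qPRO-seq 1M and 6 by qPRO-seq 250k, against 86.9% and 43.1% of all its distal peaks. From the shortest list, 7 of 8 distal qPRO-seq 250k peaks were overlapped by each of the other lists, against 80.2% (PRO-seq 1M) and 93.3% (qPRO-seq 1M) of all its distal peaks. Among members with both kinds of peak, the top distal peak scored above the top start peak in 1 of 5 (FTL), 2 of 7 (FTH1 and SLC40A1) and 1 of 6 (FTH1), against 22.7%, 29.1% and 29.4% of protein-coding genes. For FTL that distal peak lay in an intron of GYS1, 25163 bp from FTL. Its centre was 932 bp from a GYS1 start.

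The 500 bp and 50 kb limits were close to few peaks. Just inside the start limit were the IREB2 peaks at 469 bp and an FBXL5 peak in PRO-seq 1M at 495 bp (percentile 7.46). Just outside were the NCOA4 peak at 502 bp, the IREB2 peak at 509 bp and a TFRC peak in qPRO-seq 1M at 530 bp (percentile 7.45). For the distal limit, an FTH1 peak in qPRO-seq 1M lay just inside, 49211 bp from the gene (percentile 75.3), and an SLC40A1 peak just outside, at 53669 bp (percentile 54.98).

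A wider list of 35 iron genes was read by the same start rule. A start peak was found for 27, 27 and 22 of them, for 22 in all 3 lists and for 7 in none, where the shares over all protein-coding genes were 52.9%, 54.5% and 44.0%, with 43.1% in all 3 lists and 43.5% in none. Both iron chaperones, PCBP1 and PCBP2, had one in every list, with PCBP2 at percentile 1.1 in qPRO-seq 250k. The subunits of the ubiquitin ligase that works with FBXL5, SKP1, CUL1 and RBX1, had one in all lists, and HERC2, another ubiquitin ligase, in none. Of the haem breakdown genes and their regulators, 5 of 6 had one in all lists, among them NFE2L2 (percentiles 99.1, 92.2 and 90.0), BACH1 (95.55, 88.5 and 62.1) and KEAP1 (84.5, 82.1 and 87.8), which encode an activator of HMOX1, its repressor and the sensor that restrains the activator. HMOX2, the constitutive haem oxygenase, had none, like HMOX1.

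Uptake and transport genes outside the members had a start peak in all lists in 4 of 7 cases, and TF, the gene of transferrin itself, had none. TFR2 (percentiles 37.9 and 47.0) and SLC39A14 (85.8 and 71.1) had a start peak in both 1M lists and not in qPRO-seq 250k. The haemochromatosis gene HFE (58.7 and 74.1) had the same pattern. CP, the gene of ceruloplasmin, had one in qPRO-seq 1M alone (24.1) and ERFE, an erythroid hormone that lowers hepcidin, in PRO-seq 1M alone (37.4). The remaining groups had a start peak in all lists in 3 of 4 iron-sulphur assembly genes, in all 3 genes that carry an iron-responsive element or answer to hypoxia, in 1 of 2 export genes, and not in FTMT, the mitochondrial ferritin. Among groups of more than 2 genes, systemic regulators were the group with the fewest, 1 of 6 in all lists and HAMP, BMP6 and TMPRSS6 in none.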

How the data were processed

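Peak positions, dREG scores and p-values were used as the authors deposited them, without a header, for 3 groups of 2 libraries. The score of a peak has no stated unit, as deposited by the authors, and its p-value, as deposited, was at most 0.04999 in these lists, with no statement of adjustment. Per the submitters' processing notes, fastp 0.20.0, Bowtie2 2.3.5.1, deepTools 3.1.3 and UMI-tools were used on build hg38 (GRCh38), with no role or order given. Per the labels, both libraries of a group name the same list. Whether reads were pooled, and the settings of dREG, are not given in the sources used here. Reads of 37 nt were sequenced from both ends and adapters carried identifiers of 6 nt, per the labels' protocols.

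Groups came from the sample titles. Peaks on chromosomes 1 to 22 and X were placed on GENCODE release 29 with Python 3.11.15, numpy 2.4.6 and pandas 2.3.3. Starts are printed counted from 1. Peaks overlapped where they shared at least 1 bp. The functions were tested on simulated intervals. The members and gene lists were chosen with earlier results of these data known. The genes named were all 10 members, and of the other iron genes those with a start peak in some but not all lists, with further ones added as examples after their values were seen. Some genes of these lists enter the counts and are not reported here by name. Distal elements named were those in all 3 lists and the top one of each member, and the others named were chosen after their values were seen. The rule for printed sequences foresaw stretches of distal elements and windows centred on the peaks, and upstream parts of RefSeq windows stand in their place. The lists hold no counts, so depth is unknown.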

Additional observations from a re-analysis of the deposited data

How the results depend on the processing

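Each list stands for both libraries of its group. Leaving out single libraries was not run for that reason, and depth and list length cannot be told apart. No paired analysis was possible because no value per library was analysed here.

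The number of members with a start peak stayed at 9 per list under all settings run, except 8 in PRO-seq 1M at equal list sizes, where the FTL peak dropped out. For all main results, 71 alternative values stayed within the counting interval of a percentile or share, or within 1.5 times for a number of peaks or genes, and 18 did not. The cause was not tested, beyond what the settings do by construction. For a median percentile, the interval was computed over all peaks of the list. It does not measure the spread among the 9 members, so staying inside or outside it is a convention only. Equal list sizes left 10 start peaks and 5 distal peaks in PRO-seq 1M and 8 distal peaks in qPRO-seq 1M, with median percentiles of 86.7 and 76.5. The medians over all protein-coding genes at equal list sizes were not computed. Merging of peaks within 500 bp left 11 start peaks in each 1M list. A p of at most 0.01 gave median percentiles of 90.05, 88.6 and 88.0 and 5 distal peaks in qPRO-seq 250k. Within 25 kb, 6 and 15 distal peaks were left in the 1M lists, and within 100 kb there were 20, 42 and 15. Distance from starts of protein-coding genes alone gave 17 in PRO-seq 1M. Where 50% of each peak had to be shared, 25% of distal qPRO-seq 1M peaks were overlapped by PRO-seq 1M.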

Other observations

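The ferritin genes and NCOA4 have pseudogene copies elsewhere in the genome. The annotation lists 25 of FTH1, 16 of FTL and 3 of NCOA4. None of these copies had a peak within 500 bp of its start in any of the 3 lists. The share over all pseudogenes was not computed, so the absence has no background to set it against. Whether reads of the copies could be told apart from those of the parent genes was not tested. An absent peak therefore does not show that a copy was not transcribed.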
